A study of Mus musculus with 8 samples.

Results

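The 36 genes described here encode proteins that copy DNA or divide the cell. They were taken by name from the 35275 genes of the deposited count table. All 36 were present, and all 36 passed the filter on low counts that left 15412 genes for testing. By textbook role, 17 of them act in DNA replication or entry into S phase, and 19 act in mitosis.

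RNA was sequenced from 8 mouse tumours, to compare the transcriptomes of different genotypes. All 8 share floxed Nf2 and Cdkn2a alleles (Nf2 f/f; Cdkn2a f/f) and a peritoneal injection of an adenovirus carrying Cre recombinase, and are labelled as lacking both genes. Tumours 13, 14A, 59 and 61 are peritoneal primary tumours that also carry floxed Pak2 (Pak2 f/f) and are labelled Pak2-/-. Tumour 14B has the same genotype label and is a secondary tumour, and the labels do not say whether it comes from the animal of tumour 14A. Tumours 19, 20 and 127 are peritoneal primary tumours with wild-type Pak2. The labels name no age, strain, sex or cell type for the recombination, and they leave unsaid whether each tumour is from its own animal, so p-values measure the spread between these samples.

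Cells copy their DNA once per cycle in S phase and separate the copies in M phase. MCM proteins form the helicase that is loaded on origins before S phase and unwinds DNA during it, and cyclin E with Cdk2 drives entry into S phase under the control of E2F factors. Cyclins A and B with Cdk1 drive entry into mitosis, where Aurora and Polo kinases, the spindle checkpoint and the anaphase-promoting complex order the separation of chromosomes. Nf2 encodes Merlin, a tumour suppressor that holds back proliferation. Cdkn2a gives rise to p16Ink4a, which inhibits the kinases of D cyclins, and to p19Arf, which stabilises p53, and Pak2 encodes a p21-activated kinase.

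Among the promoter windows, E2F-type letters were found in 6 of 14 replication genes and 1 of 14 mitosis genes, and TTTGAA in 1 of 14 replication genes and 10 of 14 mitosis genes, a description with no test. The 5 windows shown were picked because they hold these letters, and most replication windows hold no E2F-type letters. RefSeq windows for GRCm38.p6, reaching from 250 bases before to 50 bases after a start site, were found for 28 of the 36 genes, 14 of each class. Those of Aurkb, Gins2, Foxm1, Mcm4, Ccne2, Cdc25c, Kif20a and Ccna2 were not in the table. The windows of the helicase subunits Mcm6 (chr1:128359676-128359955, minus strand) and Mcm5 (chr8:75109259-75109538, plus strand) are among the 6 with E2F-type letters, and those of Cdk1 (chr10:69352883-69353162, minus strand), Ccnb2 (chr9:70421525-70421804, minus strand) and Cdc20 (chr4:118437314-118437593, minus strand) are among the 10 mitosis windows with TTTGAA. Each is printed 5′ to 3′ on the strand of the gene, over 250 bases before and 30 bases from the start site onward. Capitals mark E2F-type letters (TTTCCCGC, TTTGGCGC, TTTCGCGC or TTTGCCGC, on either strand) and the letters of the cell cycle homology region (TTTGAA, on either strand), to which MuvB complexes bind.
Mcm6: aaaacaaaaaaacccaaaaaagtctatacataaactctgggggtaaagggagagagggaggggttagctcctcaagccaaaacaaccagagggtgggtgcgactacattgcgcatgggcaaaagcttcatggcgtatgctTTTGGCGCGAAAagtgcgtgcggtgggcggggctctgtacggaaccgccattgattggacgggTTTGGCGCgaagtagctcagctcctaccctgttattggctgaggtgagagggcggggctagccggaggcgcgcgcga
Mcm5: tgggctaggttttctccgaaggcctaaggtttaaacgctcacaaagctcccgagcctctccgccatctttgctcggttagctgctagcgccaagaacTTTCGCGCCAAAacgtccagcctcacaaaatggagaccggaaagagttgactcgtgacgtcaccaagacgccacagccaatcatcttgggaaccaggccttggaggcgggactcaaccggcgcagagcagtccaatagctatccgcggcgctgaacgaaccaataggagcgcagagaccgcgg
Cdk1: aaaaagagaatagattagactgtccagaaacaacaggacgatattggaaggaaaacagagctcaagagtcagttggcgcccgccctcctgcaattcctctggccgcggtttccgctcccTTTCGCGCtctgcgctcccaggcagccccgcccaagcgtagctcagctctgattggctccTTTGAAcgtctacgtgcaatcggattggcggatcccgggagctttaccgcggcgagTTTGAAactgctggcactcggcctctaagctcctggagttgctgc
Ccnb2: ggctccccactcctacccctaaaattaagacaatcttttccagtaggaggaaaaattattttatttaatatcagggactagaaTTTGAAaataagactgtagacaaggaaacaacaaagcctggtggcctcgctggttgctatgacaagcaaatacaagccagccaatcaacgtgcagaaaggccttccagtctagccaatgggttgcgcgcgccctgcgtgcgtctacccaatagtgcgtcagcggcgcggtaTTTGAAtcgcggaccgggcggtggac
Cdc20: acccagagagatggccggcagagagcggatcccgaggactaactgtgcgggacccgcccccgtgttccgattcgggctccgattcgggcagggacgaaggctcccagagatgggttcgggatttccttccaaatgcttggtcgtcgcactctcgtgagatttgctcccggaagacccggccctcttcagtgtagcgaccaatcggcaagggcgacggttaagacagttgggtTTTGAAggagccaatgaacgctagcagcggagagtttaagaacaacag

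In the Mcm6 window the E2F-type letters began 110, 106 and 47 bases before the start site, the first and second of these overlapping. In the Mcm5 window a pair of overlapping matches began 153 and 149 bases before it. The Cdk1 window held both motifs, with E2F-type letters from 131 bases before and TTTGAA from 71 and 15 bases before the start site. Ccnb2 held TTTGAA from 167 bases before the start site and from position 5, where the first transcribed base is position 1, and Cdc20 held it from 18 bases before.

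The replication genes with E2F-type letters (42.9%) were Mcm3, Mcm5, Mcm6, Mcm7, Cdc6 and Cdk2 and the mitosis gene (7.14%) was Cdk1, against 2.6% of the 27025 mouse genes with a window. TTTGAA was held by Mcm2 alone of the replication genes (7.14%) and by 71.4% of mitosis genes, against 20.2% of all genes. CCAAT boxes, searched on both strands, were present in 64.3% of replication genes and 92.9% of mitosis genes, against 41.1% of all genes. TATAAA was in the windows of 0 of 28 genes, against 15.7% of all genes. Overlapping matches were counted separately, a gene with several windows was counted once, and no motif contains another. A match describes letters in a window and is not evidence of binding.

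**Figure D1:**
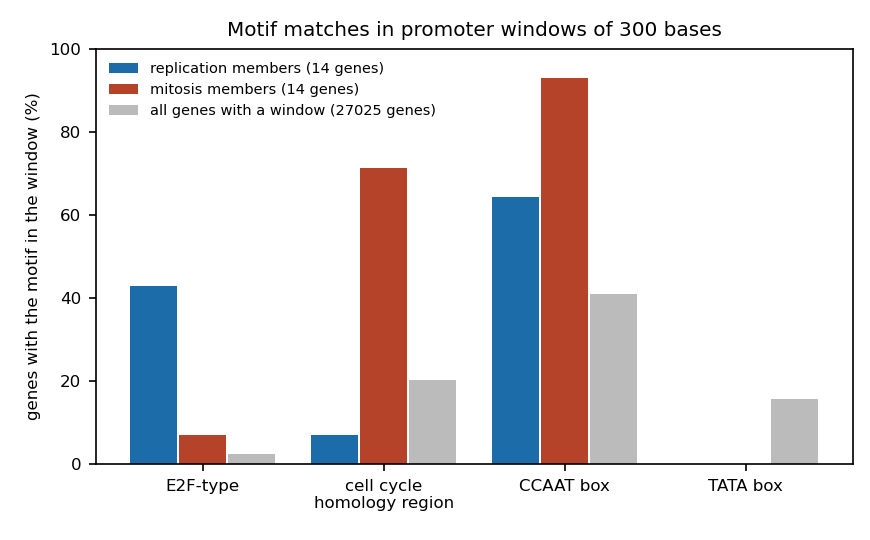
Percentage of genes whose promoter window of 300 bases holds each motif, for replication genes, mitosis genes and all genes with a window. E2F-type letters are most frequent in replication genes (42.9%) and the cell cycle homology region in mitosis genes (71.4%).

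Pak2 transcripts were higher in every tumour labelled Pak2-/- than in every wild-type tumour, and whole-gene counts cannot decide whether the label holds. Pak2 stood at 186, 238, 165 and 131 CPM (counts scaled to a common library size) in tumours 13, 14A, 59 and 61, against 128, 90.1 and 92.7 CPM in wild-type tumours 19, 20 and 127, and at 239 CPM in tumour 14B. Such counts include exons outside a floxed part, so they do not show whether an exon is missing, and the groups are called by their labels. Libraries held 13469851 (tumour 14B) to 20402401 (tumour 14A) counts. Several tumours held transcripts that mark other tissues, and whether these came from tumour cells or other cells was not tested. The summed level of 7 skeletal muscle markers, from Ttn to Myh1, was 9.47 to 625 CPM in primaries labelled Pak2-null. It was 2292, 25649 and 19620 CPM in wild-type tumours 19, 20 and 127. The summed level of 6 exocrine pancreas markers was 158867 CPM in tumour 14B and 21210 CPM in tumour 14A, against 5.2 to 49.7 CPM in the other 6 tumours. Of 8 mesothelial markers, which summed to 180.1 CPM in tumour 13, Pdpn made up 170.1 CPM there and Krt19 5.51 CPM, while Wt1 stood at 2.91 CPM, Msln at 1.11 CPM, Upk3b, Lrrn4 and Krt18 at 0.124 CPM each and Krt8 at 0.0619 CPM. The mesothelial sums ran from 96.4 to 449.7 CPM in primaries labelled Pak2-null and from 132 to 409.9 CPM in the wild-type tumours. Xist stood at 151, 459 and 26.6 CPM in wild-type tumours 19, 20 and 127 and at most 1.33 CPM elsewhere. Y-linked Ddx3y read 1.62 and 1.24 CPM for tumours 19 and 20 but 84.2 CPM or more for the other 6, so tumour 127 had both. Every tumour labelled Pak2-null thus had Ddx3y with little Xist, and wild-type tumours 19 and 20 the reverse. By these transcripts sex largely differed along with the genotype labels, and its part in the group differences was not tested.

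No cell division gene passed the test between the genotypes, and most stood farther apart among the 3 wild-type tumours than among the 4 tumours labelled Pak2-null. Of the 36, 17 had a higher and 19 a lower fitted level in the tumours labelled Pak2-null, with log2 fold changes (labelled Pak2-null minus wild type) from -0.50 for Aurka to 0.56 for Pcna. Their median was -0.03, beside 0.06 over all tested genes. In the edgeR quasi-likelihood fit, adjusted by the method of Benjamini and Hochberg over all tested genes, 0 of 36 passed, against 0.0714% of all tested genes (11 genes), and the lowest adjusted p was 0.619. DESeq2 and limma-voom also passed 0 of 36, against 7.46% and 6.16% of all tested genes. At unadjusted p under 0.05 by edgeR there were 0 of 36 in either direction, against 4.39% of all tested genes higher and 8.55% lower. DESeq2 gave 0 of 36, against 6.92% of all tested genes higher and 10.1% lower. Limma-voom gave 7 of 36, all higher, against 10.5% of all tested genes higher and 14.5% lower. The groups overlapped in all 36, whereas 5.07% of all tested genes were higher and 8.93% lower with no overlap.

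The intervals were about as wide for these genes as for all tested genes. The median standard error (SE) of their log2 fold changes was 0.44, beside 0.43 over all tested genes, and the 95% intervals reached a median of 1.03 to either side, beside 1.02, with bounds from -1.88 (Cdc25c) to 1.65 (Tk1). Changes of that size in those genes lie within the intervals. In a bulk tumour, fewer dividing cells and less RNA of these genes per cell cannot be told apart.

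**Figure D2:**
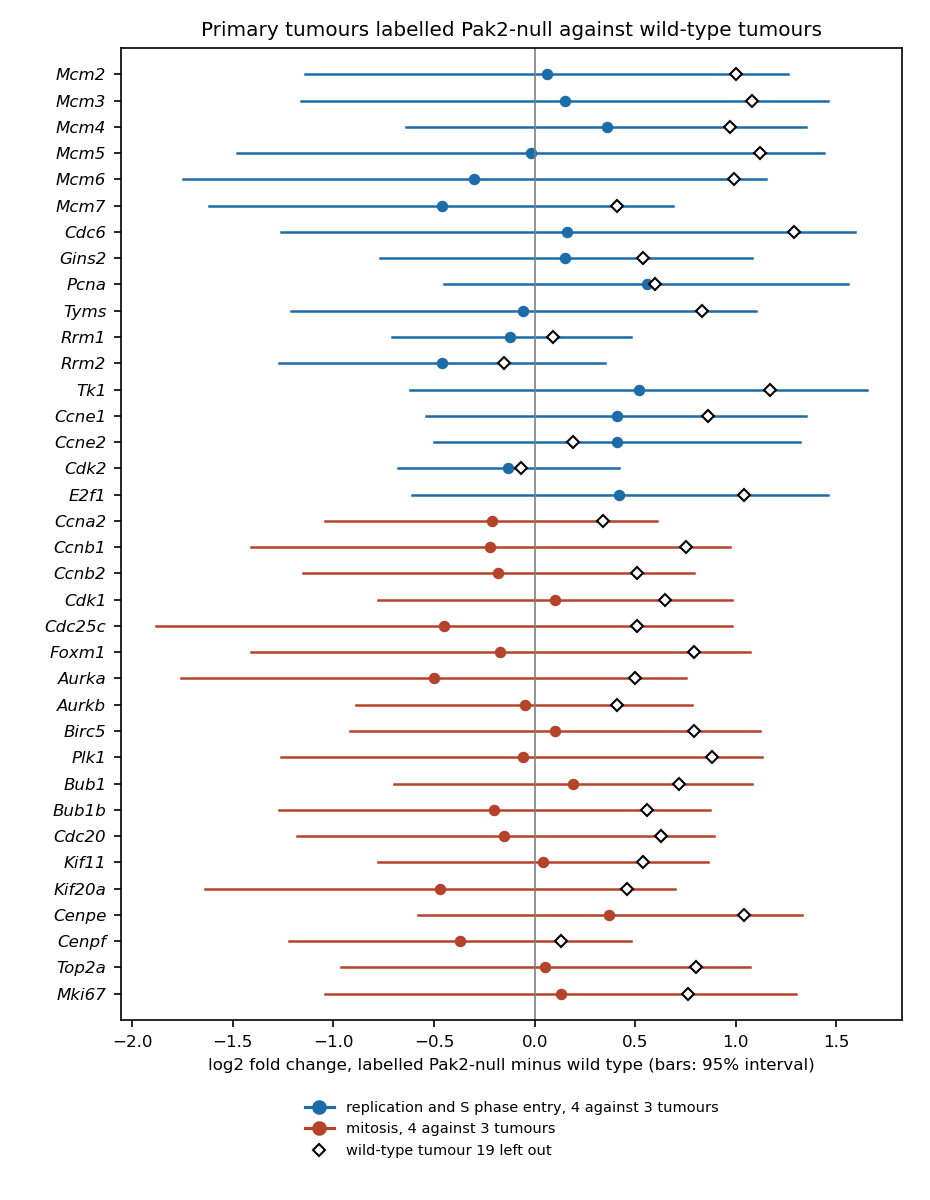
Log2 fold change of each gene, labelled Pak2-null minus wild type, with its 95% interval (circles and bars, 4 against 3 tumours) and with wild-type tumour 19 left out (open diamonds). The circles lie between -0.50 and 0.56 and every bar crosses 0, and without tumour 19 the values of 34 of 36 genes lie above 0.

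Most helicase genes followed 1 order across the primary tumours, with tumour 19 high, tumours 20 and 127 low and the tumours labelled Pak2-null between. Mcm6 (ENSMUSG00000026355, chr1:128331590-128359664), whose promoter is printed above, stood at 78.0, 90.9, 57.6 and 63.4 CPM in tumours 13, 14A, 59 and 61, against 198, 39.2 and 33.9 CPM in wild-type tumours 19, 20 and 127. The wild-type values enclosed all 4 of the others, and the log2 fold change was -0.30 (SE 0.62, adjusted p = 0.871 in the edgeR fit). Mcm5, a further helicase subunit, stood at 62.7, 104, 44.7 and 46.7 CPM with the Pak2-null label, against 139, 29.2 and 30.4 CPM with wild-type Pak2. Mcm2 stood at 61.5, 70.7, 47.9 and 46.7 CPM with the Pak2-null label, against 109, 29.0 and 27.9 CPM with wild-type Pak2, again with tumour 19 above and tumours 20 and 127 below all the others.

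Mcm7 had the lowest log2 fold change of the helicase genes, -0.46 (SE 0.49), at 57.0 ± 13.3 CPM with the Pak2-null label and 79.7 ± 63.7 CPM with wild-type Pak2 (SD, n = 4 and n = 3, as in all means below). Mcm4 had the highest, 0.36 (SE 0.43), at 61.8 ± 18.9 CPM with the Pak2-null label and 49.0 ± 30 CPM with wild-type Pak2. For Mcm4 the highest tumour was 14A at 89.1 CPM, just above tumour 19 at 83.6 CPM. Mcm3 stood at 72.3 ± 30.1 CPM with the Pak2-null label and 66.0 ± 55.2 CPM with wild-type Pak2. Cdc6, which loads the helicase on origins, stood at 9.84 ± 1.89 CPM with the Pak2-null label and 8.90 ± 8.46 CPM with wild-type Pak2, with tumour 127 lowest at 3.40 CPM. Gins2, a subunit of the active helicase complex, stood at 14.0 ± 3.6 CPM with the Pak2-null label and 12.8 ± 5.93 CPM with wild-type Pak2. Its counts are uncertain, since 67.3% of its exon bases are shared with Gse1 on the opposite strand and no strand setting is stated. Of the 8 licensing and helicase genes, 5 were fitted higher and 3 lower (adjusted p from 0.732 to 0.996 in the edgeR fit).

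**Figure D3:**
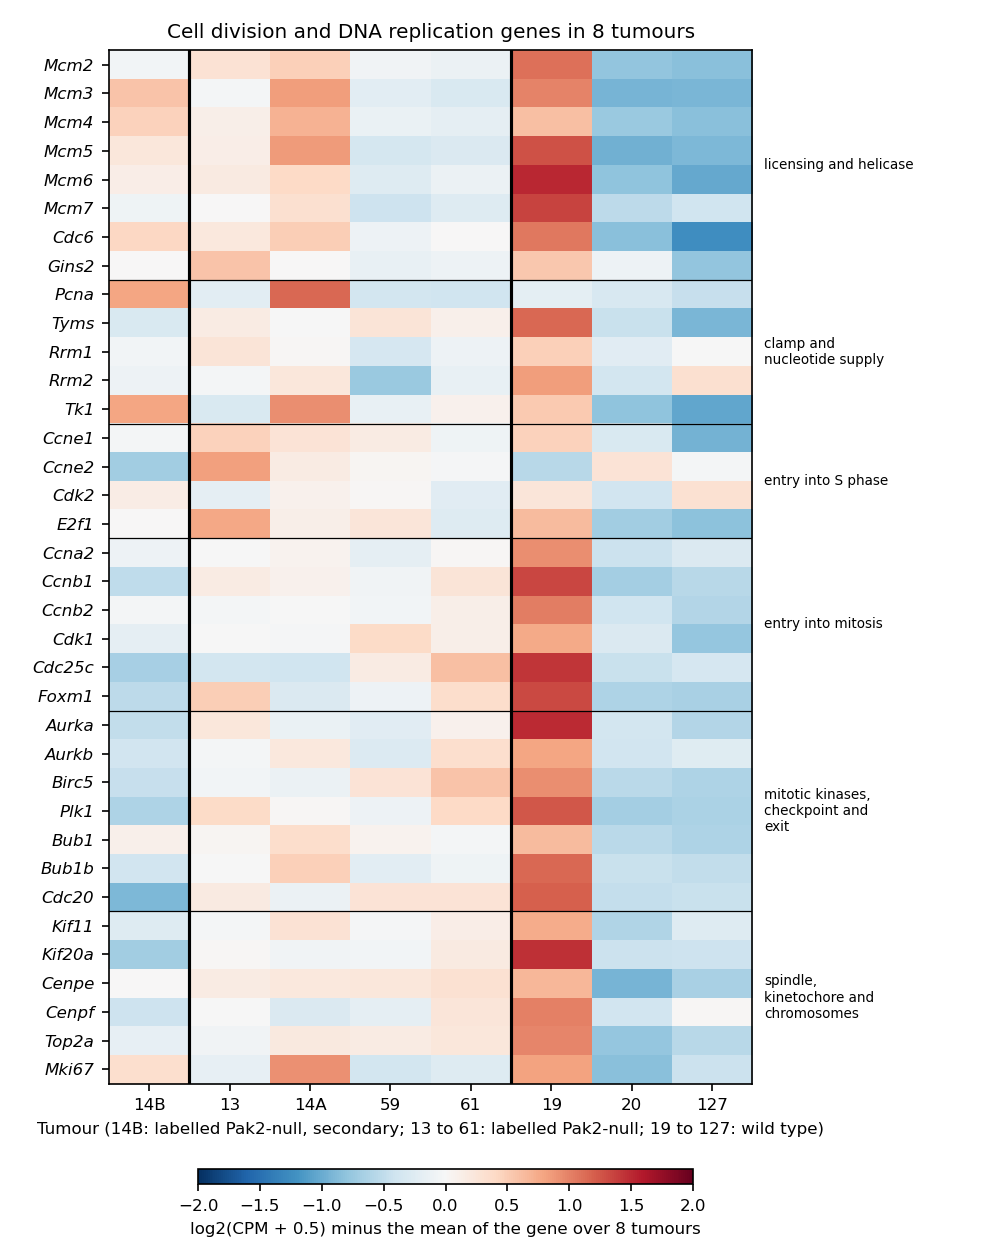
Level of each gene in each tumour, as log2(CPM + 0.5) minus the mean of that gene over the 8 tumours (red higher, blue lower), with genes ordered by role. Tumour 19 is the highest primary tumour for 27 of 36 genes, and tumours 20 and 127 both lie below the other 5 for 26 of 36.

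Pcna, the sliding clamp that holds DNA polymerases on their template, had the highest log2 fold change of the 36 and did not follow the helicase pattern. It stood at 71.1, 183, 63.7 and 62.3 CPM in tumours 13, 14A, 59 and 61, against 71.6, 65.6 and 59.7 CPM in wild-type tumours 19, 20 and 127. Apart from tumour 14A the values lay within 59.7 to 71.6 CPM. The log2 fold change was 0.56 (SE 0.43, adjusted p = 0.627 in the edgeR fit), and it was 0.02 without tumour 14A. Pcna-ps2, a copy chosen after its values were seen, is identical to Pcna at 99.23% of 781 aligned bases. It stood at 18.5, 46.9, 16.5 and 18.4 CPM with the Pak2-null label, against 4.22, 18.1 and 14.8 CPM in wild-type tumours 19, 20 and 127. Tumour 19 thus had the least of the copy, though its Pcna was the highest of the wild-type tumours. Reads may be split between genes so alike, which was not tested. With the copy added the log2 fold change was 0.64 (SE 0.42, adjusted p = 0.575 in the edgeR fit). In the other genes, copies with at least 95% identity had at most 0.139 CPM where the table listed them.

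The genes of nucleotide supply varied in different ways. Tk1, the thymidine kinase of the salvage route, stood at 33.7, 80.2, 37.6 and 44.3 CPM in tumours 13, 14A, 59 and 61, against 60.2, 23.7 and 20.0 CPM in wild-type tumours 19, 20 and 127. Tumour 14A was highest, tumour 19 was next and tumours 20 and 127 were lowest (log2 fold change 0.52, SE 0.48). Rrm2, the small subunit of ribonucleotide reductase, stood at 46.9, 56.7, 28.6 and 43.6 CPM with the Pak2-null label, against 86.2, 37.2 and 60.3 CPM with wild-type Pak2. Here tumour 59 was lowest and the log2 fold change, -0.46 (SE 0.34), had the lowest adjusted p of the 36 genes, 0.619 in the edgeR fit. The large subunit Rrm1 was steadier, at 107 ± 18.4 CPM with the Pak2-null label and 117 ± 30.7 CPM with wild-type Pak2 (log2 fold change -0.12, SE 0.25). Tyms, which makes thymidylate, stood at 22.6 ± 1.76 CPM with the Pak2-null label and 23.8 ± 19.2 CPM with wild-type Pak2: tumour 19 read 45.9 CPM and tumour 127 read 10.7 CPM.

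Among the genes of entry into S phase, Ccne2 stood apart. This cyclin E gene stood at 13.4, 8.33, 7.59 and 7.22 CPM in tumours 13, 14A, 59 and 61, against 4.82, 9 and 7.12 CPM in wild-type tumours 19, 20 and 127. It was the single gene of the 36 for which tumour 19 was lowest, and 17.4% of its exon bases are shared with Ints8 on the opposite strand. The other cyclin E gene, Ccne1, stood at 12.4 ± 2.00 CPM with the Pak2-null label and 9.52 ± 4.84 CPM with wild-type Pak2. E2f1, a transcription factor that activates replication genes, stood at 54.9, 34.6, 37.9 and 26.8 CPM with the Pak2-null label, against 50.1, 19.6 and 17.9 CPM with wild-type Pak2, with tumours 20 and 127 lowest. Cdk2, the kinase partner of cyclin E, varied little, at 35.9 ± 3.93 CPM with the Pak2-null label and 39.9 ± 9.71 CPM with wild-type Pak2. The log2 fold changes of these 4 genes were 0.41 (SE 0.39) for Ccne2, 0.41 (SE 0.40) for Ccne1, 0.42 (SE 0.44) for E2f1 and -0.13 (SE 0.23) for Cdk2, with adjusted p from 0.694 to 0.848 in the edgeR fit.

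The genes of entry into mitosis spread less among the 4 tumours labelled Pak2-null than among the wild-type tumours. Ccnb1 (ENSMUSG00000041431, chr13:100778650-100786570), the cyclin B that activates Cdk1, stood at 30.8, 29.1, 26.2 and 33.0 CPM in tumours 13, 14A, 59 and 61, against 70.1, 16.9 and 18.5 CPM in wild-type tumours 19, 20 and 127. Ccnb2, a second cyclin B, stood at 23.1, 23.4, 22.7 and 25.8 CPM with the Pak2-null label, against 48.4, 17.8 and 15.5 CPM with wild-type Pak2. For both, tumour 19 was above and tumours 20 and 127 were below every tumour labelled Pak2-null, and the log2 fold changes were -0.22 (SE 0.51) and -0.18 (SE 0.41). Cdk1, the kinase they activate, stood at 35.0, 34.7, 46.3 and 38.6 CPM with the Pak2-null label, against 60.2, 29.0 and 20.5 CPM with wild-type Pak2, in the same order (log2 fold change 0.10, SE 0.37).

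Foxm1, a transcription factor of the G2 and M phase genes, stood at 41.2 ± 10.5 CPM with the Pak2-null label and 47.1 ± 40.2 CPM with wild-type Pak2. Ccna2, the cyclin A of dividing cells, stood at 38.6 ± 2.85 CPM with the Pak2-null label and 45.4 ± 25.7 CPM with wild-type Pak2. Cdc25c, the phosphatase that switches Cdk1 on, stood at 4.79 ± 1.83 CPM with the Pak2-null label and 6.61 ± 5.60 CPM with wild-type Pak2, and its 95% interval ran from -1.88 to 0.98. Of these 6 genes 1 was fitted higher and 5 lower (adjusted p from 0.795 to 0.933 in the edgeR fit). Exon bases shared with genes on the opposite strand were 12.5% for Ccna2 (Exosc9) and 12.7% for Cdc25c (Gm3550).

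Most mitotic kinase and checkpoint genes repeated the order of tumours. Aurka, the Aurora kinase of spindle poles, had the lowest log2 fold change of the 36, -0.50 (SE 0.53, adjusted p = 0.733 in the edgeR fit). It stood at 17.8, 13.9, 12.9 and 16.2 CPM in tumours 13, 14A, 59 and 61, against 43.9, 11.7 and 9.95 CPM in wild-type tumours 19, 20 and 127, with tumour 19 far above the rest. Plk1, a Polo kinase, stood at 30.6, 23.6, 21.7 and 30.7 CPM with the Pak2-null label, against 55.5, 14.3 and 14.8 CPM with wild-type Pak2. Cdc20, which activates the anaphase-promoting complex and whose promoter holds TTTGAA, stood at 34.5, 28.2, 36.8 and 37.1 CPM with the Pak2-null label, against 70.8, 21.8 and 22.3 CPM with wild-type Pak2. In both, tumours 20 and 127 lay below and tumour 19 above the 4 tumours labelled Pak2-null.

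Aurkb, the kinase gene of the chromosomal passenger complex, stood at 20.0 ± 3.71 CPM with the Pak2-null label and 21 ± 10.3 CPM with wild-type Pak2. Birc5, which encodes Survivin, a subunit of that complex, stood at 29.5 ± 6.68 CPM with the Pak2-null label and 27.9 ± 18.6 CPM with wild-type Pak2. The checkpoint kinase gene Bub1 stood at 16.9 ± 2.17 CPM with the Pak2-null label and 15 ± 8.23 CPM with wild-type Pak2. Bub1b, which encodes the checkpoint protein BubR1, stood at 29.9 ± 6.89 CPM with the Pak2-null label and 34.9 ± 25.2 CPM with wild-type Pak2. Of these 7 genes 2 were fitted higher and 5 lower (adjusted p from 0.733 to 0.972 in the edgeR fit).

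Among spindle and chromosome genes, Mki67, the Ki-67 proliferation marker, stood at 118, 249.6, 103 and 111 CPM in tumours 13, 14A, 59 and 61, against 232, 73.9 and 98.1 CPM in wild-type tumours 19, 20 and 127. Tumour 14A was the highest, a position that tumour 19 held for the other 18 mitosis genes. Top2a, the topoisomerase that untangles sister chromosomes, stood at 110.1, 133, 130.3 and 135 CPM with the Pak2-null label, against 227, 67.8 and 78.5 CPM with wild-type Pak2. Its 4 values in the tumours labelled Pak2-null lay between tumour 19 and the pair of tumours 20 and 127 (log2 fold change 0.05, SE 0.43).

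Kif20a, a kinesin of cytokinesis, stood at 20.3 ± 1.70 CPM with the Pak2-null label and 28.5 ± 23.8 CPM with wild-type Pak2, with a log2 fold change of -0.47 (SE 0.50), and 29.3% of its exon bases are shared with Cdc23 on the opposite strand. Kif11, the kinesin that separates spindle poles, stood at 28.8 ± 3.17 CPM with the Pak2-null label and 28.4 ± 15 CPM with wild-type Pak2. The kinetochore gene Cenpe stood at 27.4 ± 1.18 CPM with the Pak2-null label and 21.4 ± 14.0 CPM with wild-type Pak2 (log2 fold change 0.37, SE 0.41). Cenpf, a further kinetochore gene, stood at 23.1 ± 3.91 CPM with the Pak2-null label and 30.3 ± 16.0 CPM with wild-type Pak2 (log2 fold change -0.37, SE 0.36). Of these 6 genes 4 were fitted higher and 2 lower (adjusted p from 0.708 to 0.975 in the edgeR fit).

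Per length of gene, the level averaged over the 7 primary tumours ran from 1.96 CPM per kilobase for Cdc6 to 54.3 for Pcna. After Pcna came Rrm1 at 27.8, Top2a at 24.1, Rrm2 at 23.4 and Mcm7 at 22.5 CPM per kilobase, and the tumours of these 4 overlapped. Cenpf at 2.35, Ccne2 at 2.73 and Cdc25c at 2.87 CPM per kilobase were next to Cdc6 at the low end. Mki67 stood at 14.0 CPM per kilobase, equal to Ccna2 at this precision.

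**Figure D4:**
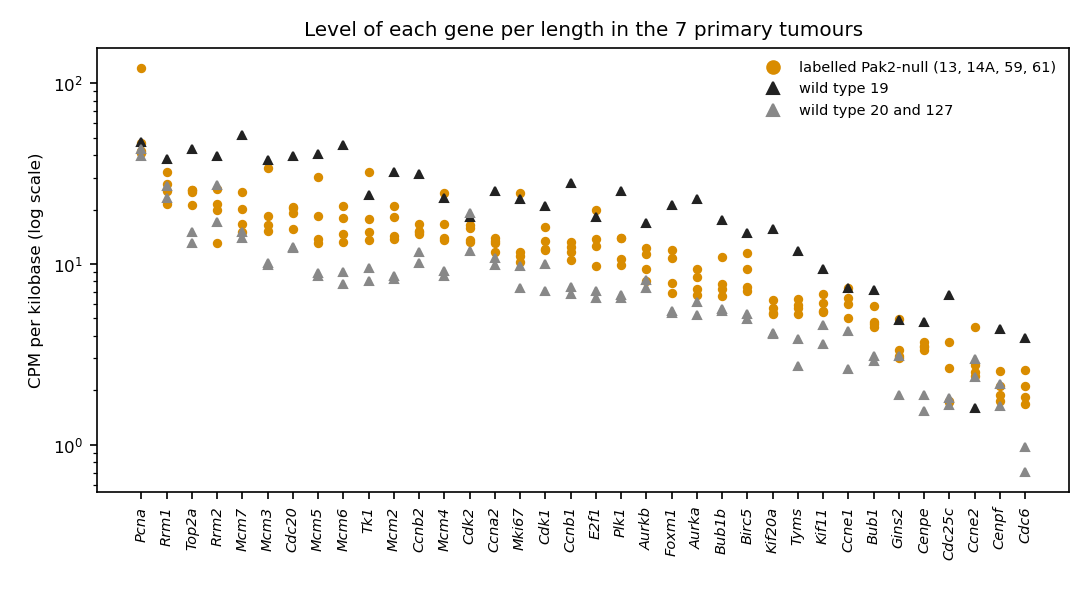
Level of each gene as CPM per kilobase of gene length (log scale) in the 7 primary tumours, genes ordered by their mean. Circles are tumours labelled Pak2-null, the black triangle is wild-type tumour 19 and grey triangles are wild-type tumours 20 and 127. Pcna is highest at a mean of 54.3 and Cdc6 lowest at 1.96, and the black triangle is at the top for most genes.

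Over the 36 genes, the spread was larger within the wild-type group. The median SD of log2 CPM was 0.27 among the tumours labelled Pak2-null and 0.87 among the wild-type tumours, against 0.51 and 0.44 over all tested genes. The wild-type SD was the larger for 35 of 36 genes, all but Pcna, against 42.6% of all tested genes. Tumour 19 was the highest of the 7 primary tumours for 27 of 36 genes (75%, against 16.1% of all tested genes). Tumours 20 and 127 both lay below the other 5 for 26 of 36 (72.2%, against 10.1%). With 0.5 added to each CPM, tumour 19 was at least 2-fold above the mean of tumours 20 and 127 for 30 of 36 genes (83.3%), including all 19 mitosis genes, against 10.3% of all tested genes.

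As a mean over the 36 genes, log2 CPM was 5.05, 5.17, 4.86 and 4.98 in tumours 13, 14A, 59 and 61, against 5.83, 4.40 and 4.38 in wild-type tumours 19, 20 and 127, and 4.82 in tumour 14B. The group means were 5.02 ± 0.13 with the Pak2-null label and 4.87 ± 0.83 with wild-type Pak2. Their difference was 0.15, while the median fitted log2 fold change was -0.03. Tumours 20 and 127, lowest in these genes, had the highest sums of the 7 muscle markers, of which 7 of 7 were fitted lower in the tumours labelled Pak2-null. All 7 had an unadjusted p under 0.05 by edgeR, while 0 passed its adjusted threshold, 7 passed that of DESeq2 and 5 that of limma-voom. Tumour 19 also had the highest sums of 5 erythroid markers, at 2747 CPM, of 6 adipocyte markers, at 782 CPM, and of 6 endothelial markers, at 759 CPM. The part of these tissues in the levels of the cell division genes was not tested.

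**Figure D5:**
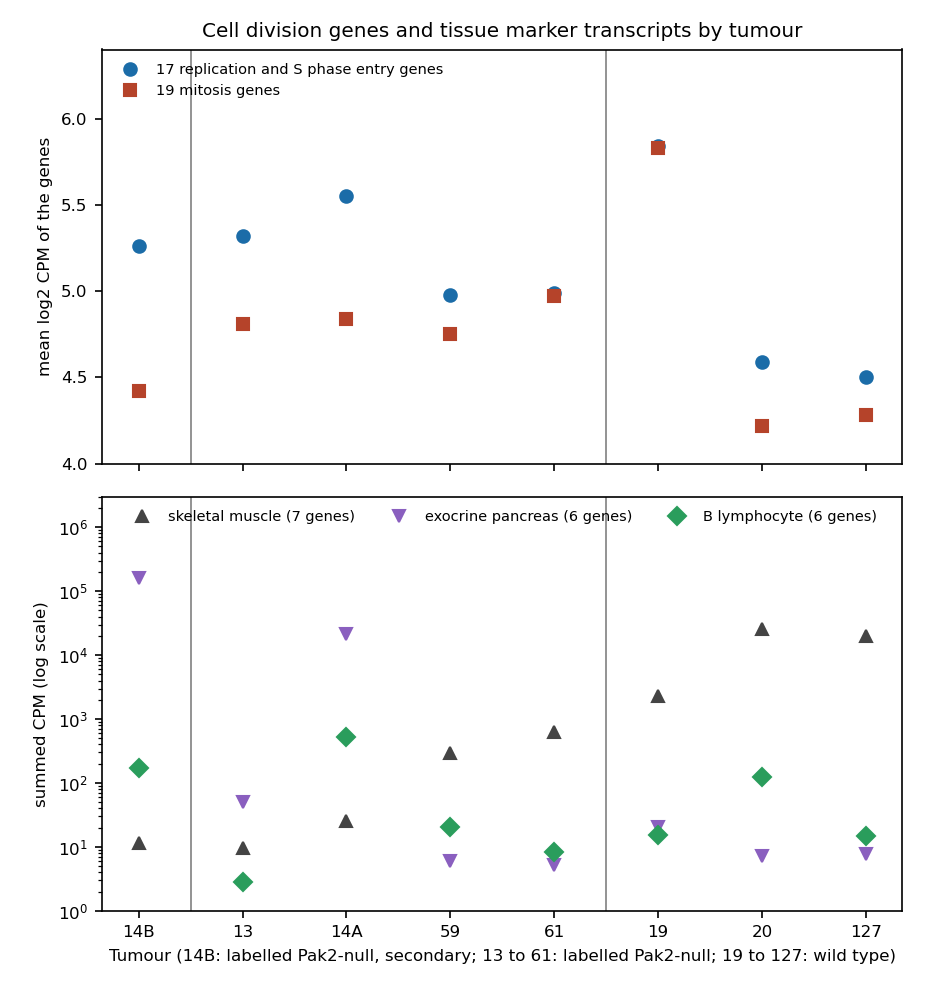
Above, mean log2 CPM of the 17 replication genes (circles) and the 19 mitosis genes (squares) in each tumour. Below, summed CPM of markers of skeletal muscle, exocrine pancreas and B lymphocytes (log scale). Tumours 20 and 127 have the lowest gene means and the highest muscle sums (25649 and 19620 CPM), and tumours 14B and 14A the highest pancreas sums.

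The direction of the group difference turned on which wild-type tumours were used. Without tumour 19, 34 of 36 genes were fitted higher in the tumours labelled Pak2-null, their median log2 fold change being 0.68, and 19 of 36 (52.8%) had an unadjusted p under 0.05 in that direction, against 5.4% of all tested genes. They included Mcm2 to Mcm6, Cdc6, Tyms, Tk1, Ccne1, E2f1, Ccnb1, Cdk1, Foxm1, Plk1, Cdc20 and Top2a. None of the 36 passed edgeR's adjusted threshold in that fit, where the lowest adjusted p was 0.101. With tumours 20 and 127 left out together, an alternative chosen after their muscle transcripts were seen, 34 of 36 genes were fitted lower, with a median of -0.82. In that fit, which assumes that the lone tumour 19 varies like the others, 15 of 36 (41.7%) had an unadjusted p under 0.05 and were lower, against 4.26% of all tested genes, and the lowest adjusted p by edgeR was 0.38. Limma-voom gave tumour 19 a quality weight of 0.326 and tumour 14A 0.262, against 0.812 to 3.2 for the other 5. By it 34 of 36 genes were fitted higher, and 7 of 36 genes (19.4%) were higher at an unadjusted p under 0.05, against 10.5% of all tested genes, and the lowest adjusted p with Benjamini-Hochberg adjustment was 0.0713.

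Replication and mitosis genes did not keep a constant ratio between tumours. The mean log2 CPM of the replication genes minus that of the mitosis genes was 0.51, 0.71, 0.23 and 0.02 in tumours 13, 14A, 59 and 61, against 0.01, 0.38 and 0.22 in wild-type tumours 19, 20 and 127, so the groups overlapped. The median fitted log2 fold change was 0.15 for the replication genes and -0.15 for the mitosis genes. In mean log2 CPM, labelled Pak2-null minus wild type was 0.23 and 0.07, so the sign for mitosis genes depended on the measure. Tumour 14A was at least 2-fold above the mean of tumours 13, 59 and 61 for 5 of 36 genes (13.9%, against 14.1% of all tested genes): Mcm3, Mcm5, Pcna, Tk1 and Mki67. Among the 8 tumours, that tumour also had the highest summed level of 6 B lymphocyte markers, at 515 CPM, and of 9 T and NK lymphocyte markers, at 285 CPM. It was highest as well in 7 macrophage markers, at 6619 CPM, and in 6 neutrophil markers, at 263 CPM. Its 6 fibroblast markers had the lowest sum, 1595 CPM, against 3046 CPM in tumour 14B and 14071 to 19343 CPM in the rest. The part of these cell types in the values was not tested.

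The balance of the same classes was also measured in secondary tumour 14B. Its replication genes stood 0.84 above its mitosis genes in mean log2 CPM, the largest such difference of the 8 tumours, with no replicate to give its error. Against tumour 14A, 34 of 36 genes were lower in tumour 14B (94.4%, against 48.6% of all tested genes), with a median difference in log2 CPM of -0.32 beside 0.01 over all tested genes. The differences were small: 0 of 36 reached 1 on the log2 scale, against 16% of all tested genes. They ran from -0.92 for Ccne2 to 0.06 for Cdk2, and Cdc20 stood at 16.2 CPM in tumour 14B and 28.2 CPM in tumour 14A. Pcna stood at 143 CPM in tumour 14B and 183 CPM in tumour 14A, both above the other 6 tumours. Several tissue marker sums also differed between the same tumours. Exocrine pancreas markers summed to 158867 CPM in tumour 14B and 21210 CPM in tumour 14A. Higher in tumour 14B were also erythroid (725 against 100.2 CPM), mesothelial (285 against 96.4 CPM) and fibroblast markers (3046 against 1595 CPM). Lower in tumour 14B were B lymphocyte (174 against 515 CPM) and T and NK lymphocyte markers (46.8 against 285 CPM). The part of these tissues in the differences of the cell division genes was not tested.

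As a description across the 7 primary tumours, where the genes of a tumour share its library, depth and tissue content, the log2 CPM of 502 of 630 pairs of these genes (79.7%) had a correlation above 0.5, with a median of 0.79. Pairs of other tested genes were not measured, so this share has no reference. Mcm6 and Mcm2 were closest to the mean of the other 35 genes (0.99 and 0.98). Ccne2 (-0.44), Pcna (0.28), Cdk2 (0.30) and Rrm2 (0.55) were the least like it.

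Few further genes of the same processes were called, and by edgeR none. Of 174 companion genes in 10 lists, 173 were tested and 0 passed in the same edgeR fit. DESeq2 passed 3 (1.73%, against 7.46% of all tested genes), Cdkn1a, Cdkn1c and Mis12, and limma-voom passed the same 3 and Ccnd1, Chek2 and E2f2 (3.47%, against 6.16%). At unadjusted p under 0.05 by edgeR, 3 genes were higher (1.73%, against 4.39% of all tested genes), Ccnd1, Mis12 and Cdc7, and 3 lower (1.73%, against 8.55%), Cdkn1c, Cdkn1a and Cdkn2c. Their median log2 fold change was 0.01, with 88 fitted higher and 85 lower. The 23 genes of spindle and cytokinesis had the lowest median, -0.30, with 5 fitted higher and 18 lower, and the 27 genes of kinetochore and checkpoint the highest, 0.15, with 15 higher and 12 lower.

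Among D cyclins, their kinases and CDK inhibitors, which act before S phase, 7 of 12 were fitted higher and 5 lower. Cdkn1c, which encodes the CDK inhibitor p57Kip2, stood at 4.40, 3.14, 6.42 and 11.1 CPM in tumours 13, 14A, 59 and 61, against 60.8, 68.2 and 124 CPM in wild-type tumours 19, 20 and 127. The groups did not overlap, yet its log2 fold change of -3.73 (SE 0.50) missed the threshold (adjusted p = 0.059 by edgeR, Benjamini-Hochberg). Cdkn1a, which encodes the p53-induced inhibitor p21, stood at 101, 122, 133 and 144 CPM with the Pak2-null label, against 171, 309 and 719 CPM with wild-type Pak2 (log2 fold change -1.66, SE 0.47, adjusted p = 0.18 by edgeR). Ccnd1, which encodes cyclin D1, stood at 714, 370.2, 449 and 361 CPM with the Pak2-null label, against 319, 122 and 169 CPM with wild-type Pak2 (log2 fold change 1.24, SE 0.44, adjusted p = 0.286 by edgeR). Cdkn2c, a CDK inhibitor gene, stood at 34.4 ± 4.96 CPM with the Pak2-null label and 50.2 ± 8.88 CPM with wild-type Pak2 (log2 fold change -0.52, SE 0.21). Cdkn1a and Cdkn1c were highest in tumours 20 and 127, which also had the most muscle transcripts, and the part of muscle in their levels was not tested. The other 8 genes of that list had log2 fold changes from -0.27 for Ccnd3 to 1.68 for Cdkn2b. They include Cdkn2a, which all tumours are labelled as lacking and which still passed the filter on low counts. Whole-gene counts do not show whether a floxed part of it is missing.

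Elsewhere the lowest p values belonged to Mis12, a kinetochore gene with a log2 fold change of 0.74 (SE 0.22), and Cdc7, the kinase gene of origin firing, with 0.84 (SE 0.34). Neither passed, with adjusted p of 0.198 and 0.36 in the edgeR fit. In the remaining lists the genes with the lowest p were Rpa3 (log2 fold change 0.52, SE 0.26), Dck (0.76, SE 0.41), Kif20b (0.49, SE 0.29), Smc2 (0.53, SE 0.26), Anapc5 (-0.52, SE 0.25), Tfdp2 (-0.66, SE 0.28) and Chek2 (-0.99, SE 0.45), with adjusted p from 0.387 to 0.528 in the edgeR fit.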

How the data were processed

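Bulk RNA sequencing measured 8 tumours. The authors deposited a table of whole-number read counts per gene with a gene length in bases, and no tumours were pooled in it. STAR and HTSeq with GRCm38 and mm10 are named, per the submitters' processing notes. Their versions, annotation release and strand setting are not given in these sources. Genes were filtered with filterByExpr (minimum count 10, minimum total count 15), scaled by TMM, and tested with edgeR 4.0.16 in R 4.3.3 by its quasi-likelihood test, adjusted over all tested genes (Benjamini-Hochberg, threshold 0.05), 4 primary tumours labelled Pak2-null against 3 wild-type tumours, with no covariate because the labels give no batch. Sex, which the labels do not give, was not a covariate either. SE is the ratio of the log2 fold change to the root of F. CPM used TMM over all 8 tumours, and log2 CPM a prior count of 2. A count of 0 allows up to 3 counts, 0.139 to 0.193 CPM in primary tumours and 0.311 CPM in tumour 14B, for counting error only. DESeq2 1.42.0, limma-voom (limma 3.58.1), other scalings and filters, and tumours left out in turn were alternatives. Copies came from BLAST 2.17.0 (95% identity over 80% of the copy) against GENCODE M21. Named genes are all 36, Pak2, the 3 companions with the lowest p in each list, and D cyclins and CDK inhibitors by value, of which some are printed. Single tissue markers are also named, and Xist and Ddx3y were chosen after their values were seen. The 36 genes and the lists were chosen with earlier results of these data known. Knl1, Sgo1, Sgo2a and Adgre1 were matched by older symbols.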

Additional observations from a re-analysis of the deposited data

Results flagged for a closer look

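Among the 4 primary tumours labelled Pak2-null, 4 of 36 genes had 1 tumour far from the other 3, by Dixon's 95% critical value for the gap as a share of the range. Tumour 14A was the highest for Pcna at 183 CPM, for Mki67 at 249.6 CPM and for Mcm3 at 117 CPM, and tumour 13 for Gins2 at 19.4 CPM. The gap took 0.927 of the range for Pcna, 0.899 for Mki67, 0.833 for Gins2 and 0.83 for Mcm3, the last just past that value. Chance flags about 1 in 20 groups. The share of all tested genes flagged in this way was not measured, so these 4 have no such reference. Tumour 14A was the highest primary tumour for 24.9% of all tested genes and for 11.1% of the 36. The wild-type group of 3 was not put to this test.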

How the results depend on the processing

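None of the 36 genes passed under any of the 17 alternatives, and all alternative settings except those named here kept every direction. The 11 genes called overall became 2 with at least 10 counts required in every tumour, 1149 by DESeq2, 950 by limma-voom with quality weights, 191 with tumour 14B added and 0 to 59 with 1 tumour left out. With tumours 20 and 127 left out together, chosen after seeing the data, 0 genes were called, and 4.29% of genes higher and 4.26% lower had an unadjusted p under 0.05. Genes of the 36 with an unadjusted p under 0.05 numbered 7 by limma-voom, 15 without tumours 20 and 127 and 0 to 19 with 1 tumour left out. These genes were all higher with the Pak2-null label by limma-voom and without tumour 19, against 10.5% and 5.4% of all tested genes. Without tumours 20 and 127 they were all lower, so the counts do not describe a single effect. The median log2 fold change of the 36 genes was 0.54 by limma-voom, -0.82 without tumours 20 and 127 and -0.26 to 0.68 with 1 tumour left out. For replication genes it was 0.57 by limma-voom, -0.45 without tumours 20 and 127 and -0.17 to 0.86 with 1 left out, and for mitosis genes 0.47 by limma-voom, -0.97 without tumours 20 and 127 and -0.43 to 0.63 with 1 left out. The cause was not tested. Log2 fold changes changed sign by limma-voom for Mcm5 (0.56), Mcm6 (0.57), Mcm7 (0.07), Tyms (0.68), Cdk2 (0.06), Ccna2 (0.19), Ccnb1 (0.54), Ccnb2 (0.35), Cdc25c (0.47), Foxm1 (0.57), Aurka (0.20), Aurkb (0.20), Plk1 (0.62), Bub1b (0.22), Cdc20 (0.58), Kif20a (0.29) and Cenpf (0.09). They changed sign without tumours 20 and 127 for Mcm2 (-0.88), Mcm3 (-0.78), Mcm4 (-0.38), Cdc6 (-0.86), Gins2 (-0.39), Tk1 (-0.24), Ccne1 (-0.19), E2f1 (-0.32), Cdk1 (-0.59), Birc5 (-0.69), Bub1 (-0.48), Kif11 (-0.60), Cenpe (-0.40), Top2a (-0.78) and Mki67 (-0.61). With library size alone they changed sign for Mcm2 (-0.02), Kif11 (-0.01) and Top2a (-0.0043), with tumour 14B added for Mcm5 (0.0008), Birc5 (-0.0024) and Kif11 (-0.02), and for Mcm5 with median-of-ratios factors in edgeR (0.004) and by DESeq2 (0.0042). With 1 tumour left out the sign changed at least once, over the ranges given, for Mcm2 (-0.28 to 1), Mcm3 (-0.18 to 1.08), Mcm5 (-0.38 to 1.12), Mcm6 (-0.71 to 0.99), Mcm7 (-0.77 to 0.41), Cdc6 (-0.24 to 1.29), Gins2 (-0.15 to 0.54), Tyms (-0.42 to 0.83), Rrm1 (-0.26 to 0.09), Ccna2 (-0.45 to 0.34), Ccnb1 (-0.55 to 0.75), Ccnb2 (-0.48 to 0.51), Cdk1 (-0.20 to 0.65), Cdc25c (-0.77 to 0.51), Foxm1 (-0.51 to 0.79), Aurka (-0.87 to 0.50), Aurkb (-0.26 to 0.41), Birc5 (-0.18 to 0.79), Plk1 (-0.39 to 0.88), Bub1 (-0.05 to 0.72), Bub1b (-0.50 to 0.56), Cdc20 (-0.44 to 0.63), Kif11 (-0.21 to 0.54), Kif20a (-0.80 to 0.46), Cenpf (-0.63 to 0.13), Top2a (-0.24 to 0.80) and Mki67 (-0.27 to 0.76). No paired analysis was possible because the groups share no replicate numbers. The median SE was 0.44, and single genes ran from 0.23 for Cdk2 to 0.62 for Mcm5 and Mcm6. The SE alone does not set the size of change that could be called, since calls used adjusted p. In the same fit Cdkn1c, with a log2 fold change of -3.73 (SE 0.50), was not called (adjusted p = 0.059 by edgeR).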
